A study of Mus musculus with 16 samples.

Results

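The granins and the enzymes that mature prohormones were followed across sorted cells of the mouse distal colon. The 9 genes, chosen by symbol, were Chga, Chgb, Scg2, Scg3, Scg5, Cpe, Pcsk1, Pcsk1n and Pcsk2, of 21442 genes in the deposited counts. These genes and the gene lists used below were chosen with earlier results of these data known. Their counts beside the shares of all tested genes are therefore descriptive only. RNA was sequenced from 16 libraries, 4 in each of 4 groups, all from RedMUC298trTg mice aged 6 to 8 weeks, which carry an mCherry reporter of goblet cells. SpdefKO_GC and SpdefKO_EC were mCherry-positive goblet cells and the remaining mCherry-negative epithelial cells of Spdef-/- RedMUC298trTg mice. WT_GC and WT_EC were the same fractions of RedMUC298trTg mice with no Spdef deletion named. The labels call the EC fraction colonocytes, but it held every live epithelial cell without mCherry signal, so any hormone cell that lacked the reporter was sorted into it. A SpdefKO_GC library likewise holds only those cells of a Spdef-/- mouse that still had enough mCherry for the gate. Goblet cell lysates were purified on another type of column than EC lysates, so column and cell fraction cannot be told apart. The labels do not say which libraries came from separate mice, so p-values reflect only how these libraries scatter, and that scatter may be technical.

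Enteroendocrine cells, the scattered hormone-secreting cells of the gut lining, store peptides in dense-core granules. Granins are acidic proteins that aggregate with prohormones and help to build these granules. Prohormones are then cut at paired basic residues by the convertases Pcsk1 and Pcsk2, after which carboxypeptidase E, encoded by Cpe, trims the basic residues left at the new ends. Pcsk1n encodes proSAAS, an inhibitor of Pcsk1, and Scg5 a chaperone that Pcsk2 needs in order to mature. Goblet cells secrete mucus from other granules, and Spdef is a transcription factor of goblet cell maturation.

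All 9 genes matched the GENCODE annotation of GRCm38, the assembly also named mm10. On the plus strand, Chga lies at chr12:102554969-102565028 (up to 8 exons in a model), Chgb at chr2:132781278-132795079 (5 exons), Pcsk1 at chr13:75089826-75134861 (14), Pcsk2 at chr2:143546156-143816285 (12) and Pcsk1n at chrX:7919822-7924410 (3). On the minus strand, Scg2 lies at chr1:79434669-79440120 (3 exons), Scg3 at chr9:75643189-75684056 (12), Scg5 at chr2:113776362-113829121 (6) and Cpe at chr8:64592542-64693054 (9). The counts cover whole genes. Genes on the opposite strand overlap Pcsk1n (Eras), Scg3 (Gm37871) and Pcsk2 (Pcsk2os1 and Pcsk2os2). Whether the counting used strand was not found in the labels, so reads of these pairs may not be separable.

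The promoters of the members were read for the cAMP response element, the palindrome TGACGTCA bound by CREB-type factors. Stretches are shown for Chga, Chgb, Scg2 and Pcsk1, the members with this motif or its first 6 bases nearest before the start. RefSeq windows of GRCm38.p6 (250 bases before to 50 after each start) were given for 8 of the 9 members, all but Cpe. TGACGTCA occurred in 3 of those 8 windows, against 1.79% of all 32851 windows of that length. The shorter TGACGT, searched on both strands and contained in the longer motif, occurred in 5 of the 8, against 7.51% of all windows. The stretches below run 5′ to 3′ on each gene's own strand, with the matches in capitals.
Chga, chr12:102554886-102554915, plus strand: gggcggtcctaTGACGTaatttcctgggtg
Chgb, chr2:132781559-132781588, plus strand: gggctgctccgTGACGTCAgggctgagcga
Scg2, chr1:79440076-79440105, minus strand: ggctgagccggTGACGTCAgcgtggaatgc
Pcsk1, chr13:75089758-75089823, plus strand: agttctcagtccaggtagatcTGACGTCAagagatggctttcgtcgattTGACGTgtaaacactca
The first match begins 44 bases before the RefSeq start in Chga, 72 in Chgb, 68 in Scg2 and 78 in Pcsk1, which has another match to the shorter motif 50 bases before its start. The fifth gene with the shorter motif was Scg5, with a match 175 bases before its start. Scg5 had another match on the opposite strand, 39 bases after its start, for which no stretch is shown. The stretches of Chgb and Scg2 lie within an exon of a longer GENCODE model. Among the other searches on both strands, CANNTG, the E-box read by basic helix-loop-helix factors, occurred in 6 of the 8 windows, against 72.3% of all, and CAGATG in 0 of the 8, against 17.2%. A match is a run of letters and was not tested for binding. Below, Pcsk1 did not share the expression pattern of Chga, Chgb and Scg2.

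Libraries held 10085637 to 17111987 gene counts. Of 21442 genes, 12915 passed the filter on low counts and were tested by the edgeR quasi-likelihood test with Benjamini-Hochberg adjustment. A gene counts as risen, fallen or changed where its adjusted p was below 0.05. Levels are CPM, counts per mega-count of gene rows, and log2 changes are given ± standard error. Spdef itself ranged over 300.4 to 470.4 CPM in the libraries labelled SpdefKO_GC, against 285 to 323 CPM in WT_GC, and over 1.09 to 3.31 CPM in SpdefKO_EC, against 1.73 to 3.79 CPM in WT_EC. The part of the gene that the allele removes was not found in the labels. The whole-gene count did not show the loss of Spdef, and each genotype direction below rests on the labels alone. Muc2, the main goblet cell mucin, was at 11450 to 15060 CPM in SpdefKO_GC and 11710 to 13210 CPM in WT_GC. In the EC fractions it was at 19.9 to 39.5 CPM in SpdefKO_EC and 37.6 to 55.8 CPM in WT_EC, as the sort labels say. Detected genes numbered 17221 to 18056 per library in SpdefKO_GC and 16553 to 17105 in WT_GC. Of the 9 members, 8 passed the filter, and Pcsk2 did not.

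In goblet cells of libraries labelled SpdefKO_GC, transcripts of the granins were more abundant than in WT_GC, and so were those of Cpe and of the convertase partners Scg5 and Pcsk1n. Pcsk1, the convertase itself, went the other way and fell. The 4 granins Chga, Chgb, Scg2 and Scg3 all rose, as did Cpe, Scg5 and Pcsk1n, so that 7 of the 8 tested members were higher and 1 was lower. Without SpdefKO_GC 19 the calls were 4 higher and 1 lower. Over all tested genes, 21.4% changed, 10.4% higher and 11% lower. The members' median log2 change was 1.23, against 0.00 over all tested genes.

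**Figure D1:**
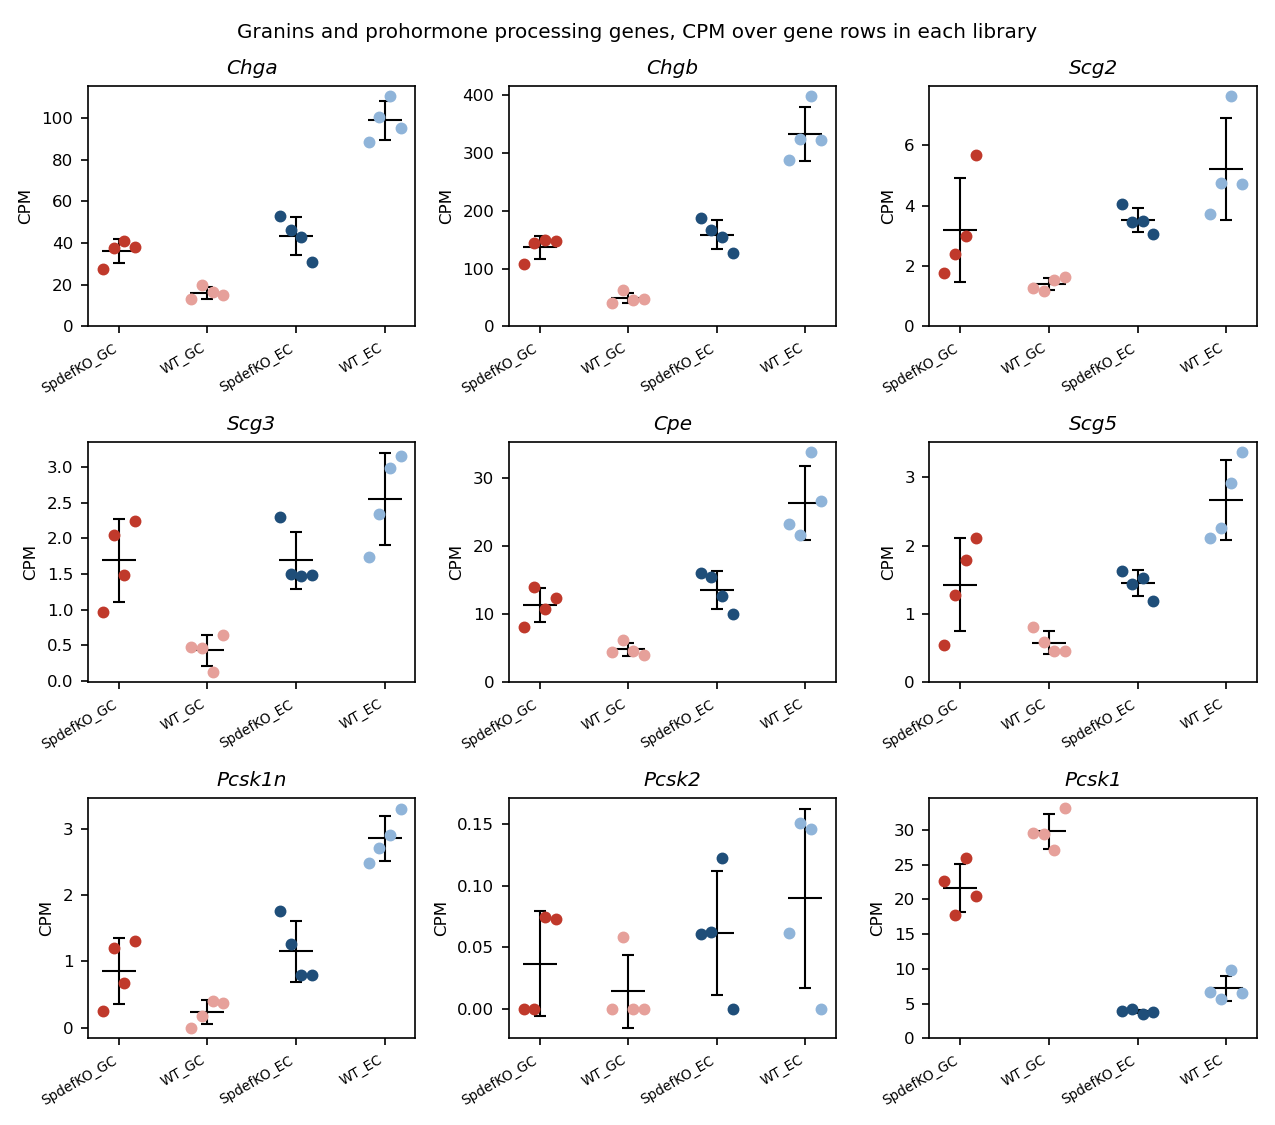
Counts per mega-count of gene rows for the 9 genes. Points are single libraries, the bar is the mean and whiskers are the SD (n = 4 per group). In 8 panels WT_GC has the lowest mean and WT_EC the highest, Pcsk2 among them at 0 to 0.151 CPM throughout, and Pcsk1 is highest in WT_GC.

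Chgb, chromogranin B, was the most abundant member. The SpdefKO_GC libraries 3, 5, 7 and 19 had 108, 144, 149 and 147 CPM, against 40.3, 62.2, 45.6 and 48.1 CPM in WT_GC 9, 11, 13 and 18. The groups did not overlap, and SpdefKO_GC 3 was the lowest of its group. Chgb averaged 137 ± 19.7 CPM in SpdefKO_GC and 49.1 ± 9.36 CPM in WT_GC (SD, n = 4 each), a log2 change of 1.48 ± 0.15 (adjusted p = 1.97e-06).

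Chga, chromogranin A, the classic marker of endocrine granules, had 27.7, 37.5, 41.2 and 38.1 CPM in SpdefKO_GC 3, 5, 7 and 19. The WT_GC libraries 9, 11, 13 and 18 had 13.2, 20.04, 16.4 and 14.9 CPM. Again no SpdefKO_GC library reached down into the WT_GC range. The log2 change was 1.15 ± 0.16 (adjusted p = 6.33e-05).

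Scg3, which tethers chromogranin A to the granule membrane, was rare, at 0.973, 2.05, 1.49 and 2.25 CPM in SpdefKO_GC 3, 5, 7 and 19 and 0.475, 0.468, 0.133 and 0.638 CPM in WT_GC 9, 11, 13 and 18. The ranges were apart, and the change was 1.98 ± 0.38 on the log2 scale (adjusted p = 0.00122). Scg2, the precursor of secretoneurin, had 1.76, 2.41, 2.98 and 5.67 CPM in SpdefKO_GC 3, 5, 7 and 19 and 1.29, 1.17, 1.52 and 1.64 CPM in WT_GC 9, 11, 13 and 18. The ranges did not overlap, but SpdefKO_GC 19 was well above the rest. With it, the log2 change was 1.18 ± 0.32 (adjusted p = 0.0141). Without SpdefKO_GC 19 the change was 0.76 and no longer passed (adjusted p = 0.0597).

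Cpe had 8.21, 14.1, 10.8 and 12.4 CPM in SpdefKO_GC 3, 5, 7 and 19, against 4.48, 6.25, 4.64 and 4.01 CPM in WT_GC 9, 11, 13 and 18. Every SpdefKO_GC library was above every WT_GC library, with a log2 change of 1.21 ± 0.20 (adjusted p = 0.000339). 

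The partners of the convertases were close to the limit of detection. Scg5 had 0.547, 1.27, 1.79 and 2.11 CPM in SpdefKO_GC 3, 5, 7 and 19 and 0.815, 0.584, 0.464 and 0.456 CPM in WT_GC 9, 11, 13 and 18. SpdefKO_GC 3 lay inside the WT_GC range, the other 3 above it. The log2 change was 1.25 ± 0.36 (adjusted p = 0.0198). The Scg5 call was lost without SpdefKO_GC 7 (adjusted p = 0.0509), SpdefKO_GC 19 (0.0741) or WT_GC 13 (0.0612), and with limma-voom (0.0650). Pcsk1n had 4, 17, 9 and 18 counts in SpdefKO_GC 3, 5, 7 and 19, or 0.243, 1.20, 0.671 and 1.31 CPM. In WT_GC 9, 11, 13 and 18 it had 0, 3, 6 and 4 counts, or 0, 0.175, 0.397 and 0.365 CPM, where 0 counts allow up to 0.204 CPM. SpdefKO_GC 3 was again within the WT_GC range. In a fit of the goblet libraries alone Pcsk1n did not pass the filter on low counts. The log2 change of Pcsk1n was 1.85 ± 0.59 (adjusted p = 0.0300), and its call was lost without SpdefKO_GC 5 (adjusted p = 0.0794), SpdefKO_GC 19 (0.0945), WT_GC 9 (0.0766) or WT_GC 11 (0.0779).

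Pcsk1 had 22.6, 17.7, 25.9 and 20.4 CPM in SpdefKO_GC 3, 5, 7 and 19 and 29.5, 29.4, 27.1 and 33.1 CPM in WT_GC 9, 11, 13 and 18. Every SpdefKO_GC library was below every WT_GC library. Pcsk1 averaged 21.7 ± 3.49 CPM in SpdefKO_GC and 29.8 ± 2.48 CPM in WT_GC (SD, n = 4 each). It fell by 0.47 ± 0.13 on the log2 scale (adjusted p = 0.0127), and the call was lost without WT_GC 18 (log2 -0.40, adjusted p = 0.0531). Of the 8 tested members, 5 had all SpdefKO_GC libraries above those of WT_GC and 1 had them all below. Over all tested genes the groups were apart for 25.1%, with 12.3% above and 12.9% below.

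Pcsk2 was nearly absent from all 4 groups, with 2 counts over the 4 SpdefKO_GC libraries, 1 in WT_GC, 4 in SpdefKO_EC and 5 in WT_EC. An exact two-sided permutation test on log2(CPM + 0.5) gave p = 0.429 for SpdefKO_GC and WT_GC and p = 0.143 for WT_GC and WT_EC. The same exact test gave p = 0.657 for SpdefKO_GC and SpdefKO_EC and p = 0.514 for SpdefKO_EC and WT_EC. The smallest p that 4 against 4 libraries allow is 0.0286. At these counts a difference in Pcsk2 was not detectable.

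In the epithelium outside the goblet gate the members that changed were all lower in the libraries labelled SpdefKO. For Chga, Chgb, Cpe and Pcsk1n this was opposite to goblet cells, while Pcsk1 fell in both fractions. Chga, Chgb, Cpe, Pcsk1n and Pcsk1 fell in libraries labelled SpdefKO_EC relative to WT_EC, and no member rose. These were 5 of the 8 tested members, against 12.6% of all tested genes changed, 6.54% lower and 6.09% higher. In 6 of the 8 every SpdefKO_EC library was below every WT_EC library, as in 10.4% of all tested genes, while 4.36% were above and 14.8% were apart in either direction. With library totals, 32.7% of all calls here were higher, against 48.3%, and the same 5 members were called. The median log2 change of the 8 was -0.87, against 0.01 over all tested genes.

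Chgb had 187, 167, 154 and 127 CPM in SpdefKO_EC 4, 6, 8 and 20, against 287, 324, 398 and 323 CPM in WT_EC 10, 12, 14 and 17. The ranges were far apart, and Chgb fell by 1.02 ± 0.14 on the log2 scale (adjusted p = 0.000205). Chga had 52.8, 46.3, 43.2 and 31.0 CPM in SpdefKO_EC 4, 6, 8 and 20 and 88.7, 100.7, 110.5 and 95.3 CPM in WT_EC 10, 12, 14 and 17. The groups did not overlap, and the log2 change was -1.14 ± 0.15 (adjusted p = 0.000112).

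Cpe averaged 13.6 ± 2.82 CPM in SpdefKO_EC and 26.4 ± 5.39 CPM in WT_EC (SD, n = 4 each). Its libraries lay at 10.0 to 16.2 CPM in SpdefKO_EC and 21.7 to 33.9 CPM in WT_EC, without overlap. Its log2 change was -0.90 ± 0.18 (adjusted p = 0.00315). Pcsk1 had 3.93, 4.21, 3.56 and 3.87 CPM in SpdefKO_EC 4, 6, 8 and 20, against 6.64, 5.73, 9.83 and 6.59 CPM in WT_EC 10, 12, 14 and 17. The SpdefKO_EC libraries were closely grouped below all WT_EC libraries, and the change was -0.84 ± 0.16 (adjusted p = 0.00194). 

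Pcsk1n was at 0.793 to 1.76 CPM in SpdefKO_EC and 2.48 to 3.30 CPM in WT_EC, without overlap. It fell by 1.23 ± 0.37 on the log2 scale (adjusted p = 0.0345). That call was lost without SpdefKO_EC 8 (adjusted p = 0.0938) or 20 (0.0757), or without WT_EC 10 (0.0528), 12 (0.0632), 14 (0.0539) or 17 (0.0903). Scg5 was also lower in every SpdefKO_EC library, at 1.19 to 1.63 CPM against 2.11 to 3.37 CPM in WT_EC, but missed the threshold (log2 -0.81 ± 0.29, adjusted p = 0.0713). With only these groups in the fit it passed (adjusted p = 0.0423). Scg2 (3.07 to 4.06 CPM in SpdefKO_EC and 3.73 to 7.64 CPM in WT_EC; log2 -0.51 ± 0.28, adjusted p = 0.240) and Scg3 (1.47 to 2.30 CPM in SpdefKO_EC and 1.74 to 3.15 CPM in WT_EC; log2 -0.53 ± 0.29, adjusted p = 0.243) overlapped between the groups.

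The 2 genotype differences were set against each other in the interaction, the log2 difference in GC minus that in EC. All 4 granins, Cpe, Scg5 and Pcsk1n passed with positive values, 7 of the 8 tested members, against 9.53% of all tested genes, 4.88% positive and 4.65% negative. With library totals in place of TMM factors, 66.1% of the interaction calls over all genes were positive, against 51.2%. The values were 2.29 ± 0.22 for Chga, 2.50 ± 0.20 for Chgb, 1.69 ± 0.43 for Scg2, 2.52 ± 0.48 for Scg3, 2.11 ± 0.27 for Cpe, 2.06 ± 0.46 for Scg5 and 3.08 ± 0.69 for Pcsk1n. Adjusted p ran from 1.91e-06 for Chgb to 0.0171 for Scg2. For Pcsk1 the interaction was 0.38 ± 0.20 and did not pass (adjusted p = 0.268), so a difference between the fractions in its genotype effect was not shown.

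**Figure D2:**
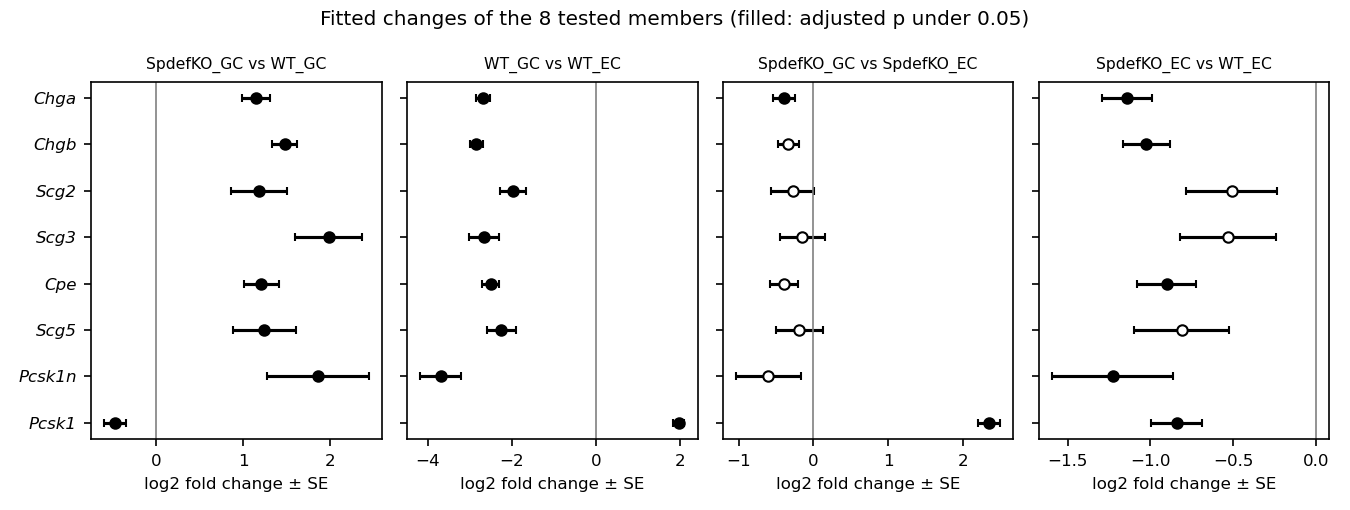
Fitted log2 fold changes ± standard error of the 8 tested members in 4 comparisons, filled where the adjusted p was under 0.05. Pcsk1 is the one gene on the other side of 0 in the left 3 panels, while in SpdefKO_EC against WT_EC all 8 values are negative.

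Within each genotype the goblet and EC fractions were compared to show where the members are expressed. In the mice without the Spdef deletion, 7 members were lower in WT_GC than in WT_EC and Pcsk1 was higher. These 8 calls stand against 61.2% of all tested genes, 31.0% higher and 30.1% lower, and the members' median was -2.58, against 0.05 over all tested genes. None of the 8 overlapped between WT_GC and WT_EC, as for 60.7% of all tested genes, 34.5% above and 26.2% below.

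Chgb averaged 49.1 ± 9.36 CPM in WT_GC and 333 ± 46.4 CPM in WT_EC (log2 -2.84 ± 0.15, adjusted p = 2.61e-11), and Chga 16.1 ± 2.91 CPM in WT_GC and 98.8 ± 9.19 CPM in WT_EC (log2 -2.69 ± 0.16, adjusted p = 8.70e-11; SD, n = 4 each). Cpe averaged 4.85 ± 0.975 CPM in WT_GC and 26.4 ± 5.39 CPM in WT_EC (log2 -2.50 ± 0.20, adjusted p = 2.27e-09). The rarer Scg2, Scg3 and Scg5 were lower in WT_GC by 1.97 ± 0.31, 2.66 ± 0.36 and 2.24 ± 0.33 on the log2 scale, given here as sizes. The steepest difference was that of Pcsk1n, with 13 counts over the 4 WT_GC libraries and 162 over the 4 WT_EC libraries (log2 -3.69 ± 0.49, adjusted p = 2.40e-06).

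Pcsk1 was 3.92-fold higher in WT_GC, at 29.8 ± 2.48 CPM, against 7.20 ± 1.80 CPM in WT_EC (SD, n = 4 each; log2 1.97 ± 0.14, adjusted p = 3.01e-10). The lowest WT_GC library, at 27.1 CPM, was above the highest WT_EC library, at 9.83 CPM. In the Spdef-/- mice it was 5.08-fold higher in SpdefKO_GC, at 21.7 ± 3.49 CPM, against 3.89 ± 0.267 CPM in SpdefKO_EC (log2 2.35 ± 0.15, adjusted p = 8.33e-11).

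For the other members the fitted log2 difference between the fractions was smaller in the libraries labelled SpdefKO than between WT_GC and WT_EC. It ran from -0.60 to -0.15. With standard errors up to 0.43, a larger difference is not excluded for the rarer members. Of the 8 tested, Pcsk1 was higher in SpdefKO_GC and Chga lower, against 56.4% of all tested genes changed, 28.0% higher and 28.4% lower. Pcsk1 was also the one member of the 8 without overlap, as were 50.7% of all tested genes, 31.0% above and 19.7% below. Without SpdefKO_GC 19 or without SpdefKO_EC 20 the number of members called was 4. With library totals, 61.9% of all calls here were higher, against 49.7%. Chga averaged 36.1 ± 5.86 CPM in SpdefKO_GC and 43.3 ± 9.14 CPM in SpdefKO_EC (SD, n = 4 each; log2 -0.40 ± 0.15, adjusted p = 0.0332), and the libraries overlapped. This call was lost without SpdefKO_GC 3 (adjusted p = 0.107) or without SpdefKO_EC 4 (0.119), 6 (0.0694) or 8 (0.0556), and under 4 other settings given in the closing part. Chgb, at 137 ± 19.7 CPM in SpdefKO_GC and 159 ± 25.4 CPM in SpdefKO_EC, just missed the threshold (log2 -0.34 ± 0.14, adjusted p = 0.0511), and Cpe also missed it (log2 -0.39 ± 0.18, adjusted p = 0.0776). For Scg2, Scg3, Scg5 and Pcsk1n the log2 values were -0.28 ± 0.29, -0.15 ± 0.30, -0.19 ± 0.31 and -0.60 ± 0.43, with adjusted p from 0.245 to 0.704. The comparisons named here share groups with each other, and their values are given side by side.

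The order of the 4 group means was therefore WT_EC, SpdefKO_EC, SpdefKO_GC, WT_GC from high to low for Chga, Chgb, Scg2, Scg5, Cpe and Pcsk1n. Scg3 had the same top and bottom, with 1.69 CPM in both SpdefKO groups. The neighbours SpdefKO_GC and SpdefKO_EC overlapped for each of these 7 genes. SpdefKO_EC and WT_EC overlapped for Scg2 and Scg3, and SpdefKO_GC and WT_GC for Scg5 and Pcsk1n. For Pcsk1 the order was WT_GC, SpdefKO_GC, WT_EC, SpdefKO_EC, with no overlap between any neighbours. Since each library pools many sorted cells, more hormone cells in a fraction and more RNA per such cell cannot be told apart.

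Levels of different genes can be set side by side only per length, here CPM per kb of annotated exon. In every group Chgb was highest and Chga next, with 50.03 ± 7.19 and 13.1 ± 2.13 CPM per kb in SpdefKO_GC, 17.9 ± 3.42 and 5.86 ± 1.05 in WT_GC, 57.9 ± 9.28 and 15.7 ± 3.32 in SpdefKO_EC and 122 ± 16.9 and 35.9 ± 3.34 in WT_EC (SD, n = 4 each). Pcsk1 came next after them in WT_GC, at 5.31 ± 0.442 CPM per kb, close to Chga. In WT_EC it ranked 7 of 9, at 1.29 ± 0.321 CPM per kb, beside its inhibitor Pcsk1n at 1.30 ± 0.157. In WT_GC the level of Pcsk1n was 0.107 ± 0.0841 CPM per kb. Pcsk2 was last in all groups, at 0.00185 to 0.0113 CPM per kb.

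**Figure D3:**
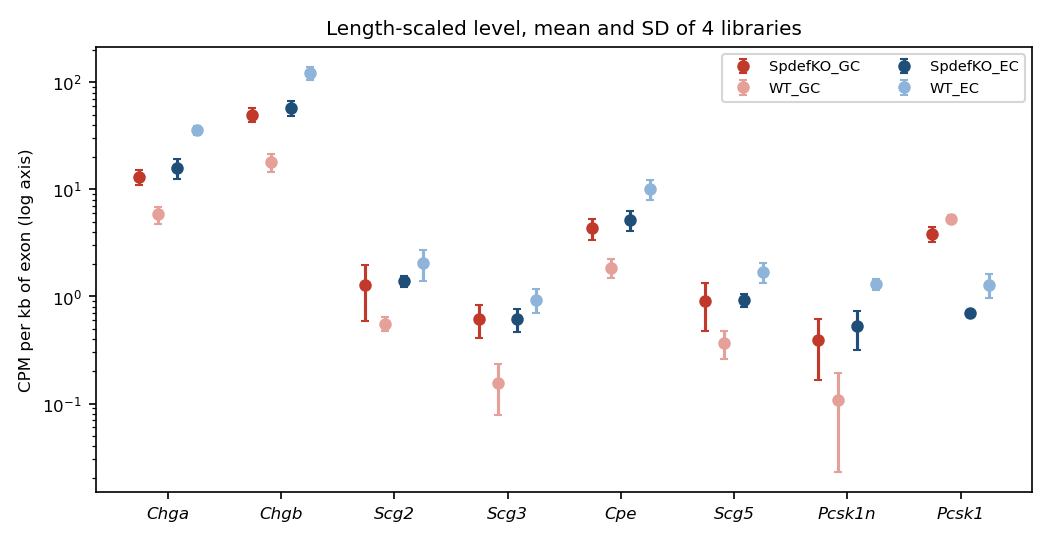
Length-scaled levels of the 8 tested members on a log axis, as mean and SD of 4 libraries per group. Chgb leads in every group, and Pcsk1 is the gene whose goblet cell points lie above its EC points.

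Hormone genes and enteroendocrine transcription factors were read beside the members. Whether they came from the same cells as the members was not tested. Among 17 hormone and amine synthesis genes 9 were tested, of which 6 rose and 0 fell in SpdefKO_GC relative to WT_GC (median log2 1.56). In SpdefKO_EC relative to WT_EC 0 rose and 5 fell (median log2 -0.76). Of all tested genes 21.4% changed in the first comparison, 10.4% higher, and 12.6% in the second, 6.54% lower. Gcg, which encodes proglucagon, a precursor cut by the convertases, averaged 33.5 ± 5.88 CPM in SpdefKO_GC and 10.5 ± 1.28 in WT_GC (log2 1.67 ± 0.18, adjusted p = 6.12e-06). Its level was 24.0 ± 6.77 CPM in SpdefKO_EC and 49.1 ± 6.51 in WT_EC (SD, n = 4 each; log2 -0.98 ± 0.17, adjusted p = 0.00158). The secretin gene Sct had the largest rise of this list in goblet cells, with 8.11 ± 0.859 CPM in SpdefKO_GC and 2.16 ± 0.285 in WT_GC (log2 1.91 ± 0.19, adjusted p = 8.03e-07). Tph1, the enzyme of serotonin synthesis, and Pyy, the peptide YY gene, rose by 1.58 ± 0.21 and 1.56 ± 0.24 on the log2 scale. Sst, the somatostatin gene, named after its values were seen, fell in SpdefKO_EC (log2 -1.63 ± 0.26, adjusted p = 0.000638) and had a log2 change of -0.19 ± 0.32 in SpdefKO_GC (adjusted p = 0.718).

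Of 18 enteroendocrine transcription factors 15 were tested, with 12 higher and 0 lower in SpdefKO_GC (median log2 1.26) and 1 higher and 4 lower in SpdefKO_EC (median log2 -0.70). The shares of all tested genes were 10.4% higher in SpdefKO_GC, and 6.09% higher and 6.54% lower in SpdefKO_EC. Those at 5 CPM or more in the higher goblet group were Rfx3, a factor of endocrine differentiation (log2 0.55 ± 0.11, adjusted p = 0.00107), and Foxa2, a factor of gut epithelium that is also abundant in goblet cells (log2 0.36 ± 0.09, adjusted p = 0.00835). Their changes were the smallest of the 12. The other risen factors averaged under 5 CPM in both goblet groups. Their log2 changes ran from 1.06 ± 0.27 for Myt1 to 2.70 ± 0.43 for Neurog3, both named after their values were seen. Summed over hormones and factors, the 35 genes reached 393 to 467 CPM in SpdefKO_GC and 283 to 322 CPM in WT_GC. They reached 313 to 369 CPM in SpdefKO_EC and 424 to 525 CPM in WT_EC. Most of the goblet cell sums came from Foxa1, Foxa2 and Ddc, which are not restricted to hormone cells, and of which Foxa1 and Ddc did not pass in SpdefKO_GC. Foxa1 averaged 102 ± 13.7 CPM in SpdefKO_GC and 83.7 ± 9.06 in WT_GC, Foxa2 97.7 ± 11.4 CPM in SpdefKO_GC and 75.8 ± 3.52 in WT_GC, and Ddc 67.8 ± 6.92 CPM in SpdefKO_GC and 64.7 ± 5.66 in WT_GC (SD, n = 4 each). Gast, Npy and Penk had no count in SpdefKO_GC or WT_EC, Penk none in WT_GC and Gip none in SpdefKO_EC. The part of a larger enteroendocrine share of the goblet gate in the members' change was not tested.

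In goblet cells, granule genes that do not belong to the members were called in both directions. Of 34 listed genes of dense-core granule biogenesis and release, 32 were in the files and 28 tested, with 5 higher and 5 lower in SpdefKO_GC relative to WT_GC (median log2 0.04). In SpdefKO_EC relative to WT_EC, 1 was higher and 7 were lower (median log2 -0.41). Of all tested genes, 21.4% changed in the goblet comparison and 12.6% in the EC comparison. Ptprn2, a membrane protein of dense-core granules, was abundant in goblet cells and fell, with 85.4 ± 5.92 CPM in SpdefKO_GC and 209 ± 7.74 CPM in WT_GC (SD, n = 4 each; log2 -1.30 ± 0.10, adjusted p = 2.05e-08). It also fell in SpdefKO_EC relative to WT_EC (log2 -0.75 ± 0.11, adjusted p = 0.000369). Rab3d, a small GTPase of secretory granules, had 313 ± 18.4 CPM in SpdefKO_GC and 441 ± 18.5 in WT_GC (log2 -0.50 ± 0.08, adjusted p = 0.000108). Hid1, a Golgi protein of granule formation, fell by 0.41 ± 0.08 on the log2 scale (adjusted p = 0.00107). The 5 that rose, named after their values were seen, were Rab3c, Syt13, Cadps, Snap25 and Unc13a, components of vesicle docking and release with group means under 4 CPM in goblet cells. They had log2 changes of 1.94, 1.79, 1.43, 1.29 and 0.63. In WT_GC relative to WT_EC, 15 genes of the list were higher and 8 lower, against 31.0% and 30.1% of all tested genes. Ptprn2 was higher in WT_GC by 3.65 ± 0.11 and Rab3d by 2.22 ± 0.08 on the log2 scale.

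Other processing enzymes were called in both directions. Of 18 listed, 15 were tested, with 2 higher and 3 lower in SpdefKO_GC relative to WT_GC (median log2 -0.10) and 2 higher and 2 lower in SpdefKO_EC relative to WT_EC (median log2 -0.05). These counts stand against 21.4% and 12.6% of all tested genes changed in those comparisons. The membrane carboxypeptidase gene Cpm fell in SpdefKO_GC (log2 -0.45 ± 0.11, adjusted p = 0.00807), as did Qpctl, a glutaminyl cyclase of the Golgi (log2 -0.36 ± 0.09, adjusted p = 0.00841), and the convertase gene Pcsk7 (log2 -0.21 ± 0.07, adjusted p = 0.0309). The genes that rose, Qpct, a secreted glutaminyl cyclase, and Cpn1, a plasma carboxypeptidase, were under 5 CPM in both goblet groups and are named after their values were seen. Also chosen after their values were seen, Pam and Furin did not pass. Pam, which amidates peptide ends, had 87.6 ± 6.64 CPM in SpdefKO_GC and 93.5 ± 6.49 in WT_GC. Furin, the general convertase of the Golgi, had 62.5 ± 6.03 CPM in SpdefKO_GC and 70.9 ± 6.18 in WT_GC.

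**Figure D4:**
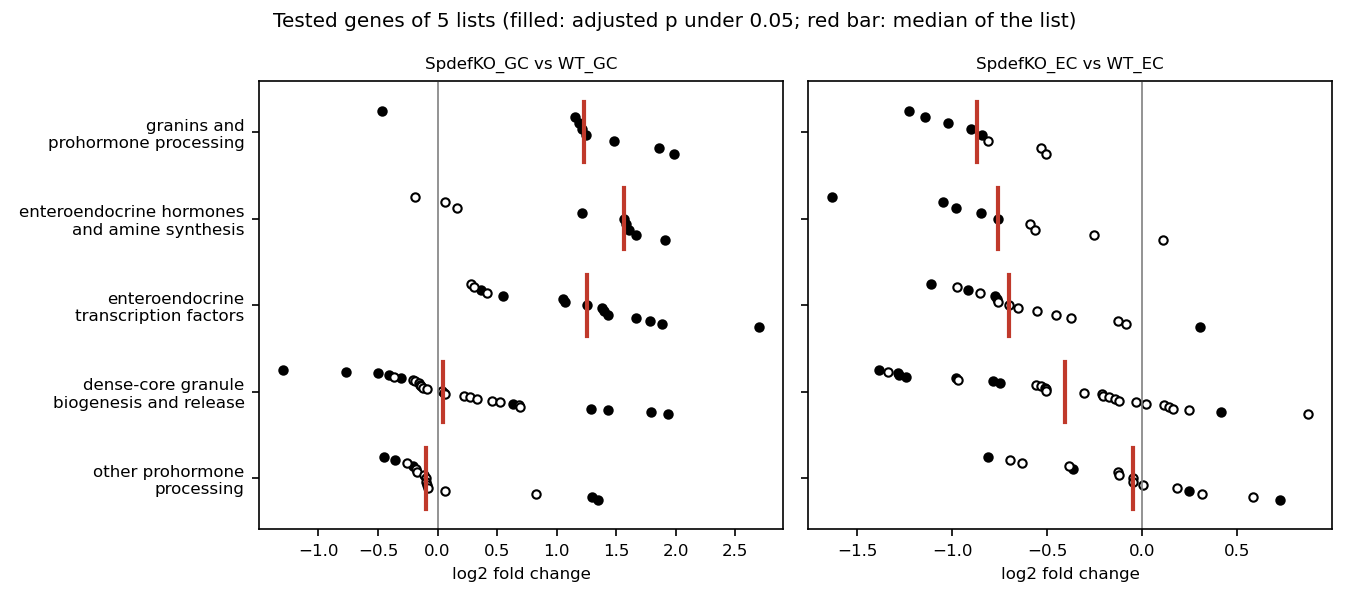
Log2 fold changes of the tested genes of 5 lists in SpdefKO_GC against WT_GC and SpdefKO_EC against WT_EC, with filled points at adjusted p under 0.05 and red bars at the list medians. The medians of the members, hormones and transcription factors are 1.23, 1.56 and 1.26 on the left and -0.87, -0.76 and -0.70 on the right, and those of the other lists are nearer to 0.

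Markers of other cell types that could carry granins or spill into the gates were read beside these results. Their counts stand against 10.4% of all tested genes higher in SpdefKO_GC and 6.54% lower in SpdefKO_EC. Of 16 enteric neuron and glia markers 6 were tested, and 2, Ret and Nefm, rose in SpdefKO_GC, named after their values were seen. Ret averaged 9.62 ± 2.64 CPM in SpdefKO_GC and 1.81 ± 0.287 in WT_GC (SD, n = 4 each; log2 2.38 ± 0.20, adjusted p = 1.11e-07). The log2 change of Nefm was 1.26 ± 0.26 (adjusted p = 0.00178). In SpdefKO_EC 2 fell, Nefl (log2 -1.31 ± 0.31, adjusted p = 0.00966) and again Nefm (log2 -0.88 ± 0.23, adjusted p = 0.0171). The 16 summed to 251 to 343 CPM in SpdefKO_GC and 227 to 284 CPM in WT_GC, and to 429 to 717 CPM in SpdefKO_EC and 546 to 591 CPM in WT_EC, and most of it came from Erbb3, which epithelial cells also express (272 ± 42.9 CPM in SpdefKO_GC and 260 ± 25.6 in WT_GC; SD, n = 4 each). Sox10, which defines glia, had no count in either EC group. Of 8 colonocyte markers 7 were tested and 5 rose in SpdefKO_GC, where the list summed to 353 to 546 CPM, against 241 to 347 in WT_GC. In the EC fractions it summed to 7165 to 9011 CPM in SpdefKO_EC and 7869 to 8668 in WT_EC. Immune markers, 3 of 6 tested higher, summed to 10.1 to 14.4 CPM in SpdefKO_GC and 7.15 to 9.03 in WT_GC. The largest in SpdefKO_GC was Itgam (4.52 ± 0.53 CPM, against 1.85 ± 0.26 in WT_GC), while Ptprc, Cd68 and Lyz2 did not pass. Stromal markers, 1 of 3 tested higher, summed to 8.19 to 10.5 CPM in SpdefKO_GC and 2.72 to 3.33 CPM in WT_GC. Most of that sum was Vim (7.18 ± 0.91 CPM in SpdefKO_GC and 1.70 ± 0.44 in WT_GC), while Pecam1 and Col3a1 did not pass. These genes are named after their values were seen. Of 8 tuft cell markers 7 were tested, and 5 fell in SpdefKO_EC relative to WT_EC (median log2 -1.68), while 0 of the 7 passed the edgeR test in SpdefKO_GC relative to WT_GC, with 1, Avil, at an unadjusted p under 0.05. The tuft list summed to 8.92 to 16.6 CPM in SpdefKO_EC and 37.9 to 77.5 CPM in WT_EC, and to 21.4 to 47.8 CPM in SpdefKO_GC and 38.3 to 53.5 CPM in WT_GC. Dclk1, a tuft cell kinase, had a log2 change of -2.16 ± 0.35 in SpdefKO_EC, and Trpm5, a cation channel, averaged 2.65 ± 0.642 CPM in SpdefKO_EC and 11.2 ± 3.56 CPM in WT_EC (SD, n = 4 each). The part of these cell types in the members' changes was not tested.

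Among tested genes outside the members, those most like each member were sought. Likeness was the root mean square difference between log2 CPM profiles over the 16 libraries, each centred on its own mean. By this choice members could not be neighbours of each other. For Cpe the nearest was Slc38a11, an amino acid transporter (0.19), then Baiap3 (0.22). For Chgb they were Map1b, a microtubule-associated protein (0.20), and Baiap3 (0.25), and for Chga Baiap3 (0.24) and Insl5, a peptide hormone (0.27). Scg2 lay nearest to Pappa2, a protease of growth factor binding proteins (0.31), and Insl5 (0.33), Scg5 to Pappa2 (0.28) and Kif1a, a vesicle motor (0.32), and Scg3 to Pyy (0.32) and Neurod1 (0.37). For Pcsk1n, Celf3 (0.46) and Map1b (0.49) were nearest, at a larger distance. Pcsk1 had other neighbours, Eid1 (0.24) and Acsl1, an acyl-CoA synthetase (0.26). Acsl1 averaged 102 ± 4.40 CPM in SpdefKO_GC and 138 ± 16.3 CPM in WT_GC, and 22.2 ± 2.30 CPM in SpdefKO_EC and 29.6 ± 5.21 CPM in WT_EC (SD, n = 4 each).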

How the data were processed

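RNA of 16 libraries was measured, 4 per group. The deposited values are raw read counts per gene symbol. Per the submitters' processing notes, STAR 2.4.0f, FastQC 0.11.2, DESeq2 1.14 and HTSeq 0.6.1p1 were used with build mm10; no roles are named. Annotation and strand setting: not given in the sources used here. The library kit was stranded and removed ribosomal RNA, per the labels' protocols. A deposited table of scaled counts was not used. The 3 lines that name no gene held 47.1% to 54.7% of all counts and were left out.

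Tests were run in R 4.3.3 with edgeR 4.0.16 and limma 3.58.1, using TMM scaling, the default filter by group, robust quasi-likelihood fits with 1 coefficient per group over all libraries, and Benjamini-Hochberg adjustment over 12915 genes at 0.05. Standard errors are approximate, from the size of the log2 change over root F. Levels are CPM over gene rows without TMM factors. The limit for 0 counts is 3 counts of that library and covers counting error only. Alternatives were DESeq2 1.42.0, limma-voom, library totals, upper-quartile factors, no filter, only the groups compared, and each library left out. The fit was tested on simulated data, in which the changed genes had a mean above 5 CPM. Changes of rarer genes, Scg2, Scg3, Scg5 and Pcsk1n among them, were not covered. All members were named. From other lists, up to 4 called genes per list were named, with the largest changes and at least 5 CPM in the higher group. Spdef, Muc2 and, per member, the 2 nearest profiles outside the members were also named. Some listed genes are not reported here. Members and lists were chosen with earlier results of these data known.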

Additional observations from a re-analysis of the deposited data

Results flagged for a closer look

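For 7 members the genotype difference in goblet cells differed from that in the other epithelium by the edgeR interaction test. The log2 differences of differences were 2.29 for Chga, 2.50 for Chgb, 1.69 for Scg2, 2.52 for Scg3, 2.06 for Scg5, 3.08 for Pcsk1n and 2.11 for Cpe, all called with every single library left out and under the other settings tried.

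Among 36 sets of 4 libraries (9 genes in 4 groups), 3 held a library far from the others by Dixon's test. Chance flags about 1 in 20 such sets. Chgb in SpdefKO_GC 3, at 108 CPM, was the low one, below 144 to 149 CPM in the others, and that library was the lowest of its group for each of the 7 members that rose, for the summed hormone genes (172 CPM, against 186 to 218 in the others) and for the summed enteroendocrine factors (221 CPM, against 229 to 280.4). Scg3 in SpdefKO_EC 4, at 2.30 CPM, was the high one, against 1.47 to 1.51 CPM in the rest. Pcsk2 in WT_GC 11, at 0.0584 CPM, rests on 1 count where the other WT_GC libraries had 0.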

How the results depend on the processing

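The number of members called in WT_GC against WT_EC (8) and in the interaction (7) was the same under every alternative run. In SpdefKO_GC against WT_GC, 8 were called, with 5 to 8 over single libraries left out. The 5 arose without SpdefKO_GC 19, where 4 were higher and 1 lower. In SpdefKO_EC against WT_EC, 5 were called, with 4 to 5 over single libraries left out. In SpdefKO_GC against SpdefKO_EC, 2 were called, with 1 to 4 over single libraries left out, the 4 without SpdefKO_GC 19 or SpdefKO_EC 20. There 1 was called with library totals only, with upper-quartile factors, with no low-count filter and with only the groups compared. These are the settings that ended the Chga call, with adjusted p of 0.134, 0.124, 0.0575 and 0.0717, while Chgb passed with DESeq2 (0.0365) and limma-voom (0.0484). Over all members and alternatives, no called change turned sign. Between SpdefKO_GC and SpdefKO_EC, library totals and upper-quartile factors shifted the median of all genes by 0.13 and 0.11 on the log2 scale and gave 61.9% and 60.9% of calls higher, against 49.7%. In SpdefKO_EC against WT_EC those settings gave 32.7% and 33.1% higher, against 48.3%, and in the interaction library totals gave 66.1%, against 51.2%. With only the groups compared, 1075 genes were called in SpdefKO_EC against WT_EC, against 1631, and 940 without SpdefKO_EC 4 or 1006 without WT_EC 17. The cause was not tested. With only the groups compared, Pcsk1n did not pass the filter in SpdefKO_GC against WT_GC and had no value. No paired analysis was possible because the groups share no library number; GC and EC numbers run in neighbouring couples, which the labels do not tie to mice. Scg3, Scg5, Pcsk1n and Pcsk2 are limited by depth, at under 4 CPM in every library.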

Other observations

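The ratio of the 2 chromogranins, chosen after its values were seen, did not pass in any of 4 comparisons after adjustment. A lone comparison could not have passed that adjustment, however far apart its groups, so no conclusion is drawn from the adjusted values. Counts of Chgb per count of Chga were 3.89, 3.85, 3.62 and 3.86 in SpdefKO_GC 3, 5, 7 and 19, against 3.05, 3.11, 2.77 and 3.24 in WT_GC 9, 11, 13 and 18. The groups did not overlap (log2 difference 0.33, exact two-sided permutation p = 0.0286, the smallest that 4 against 4 libraries allow; 0.114 adjusted over 4 comparisons). In the EC fractions the ratio averaged 3.70 ± 0.255 in SpdefKO_EC and 3.36 ± 0.176 in WT_EC (SD, n = 4 each; exact permutation p = 0.0857, also 0.114 adjusted).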
